A study of Mus musculus with 6 samples.

Results

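The secretory entry genes described here are 43 genes whose products carry proinsulin and other secretory proteins into and out of the endoplasmic reticulum (ER), taken from a written list of signal recognition, translocon, signal peptidase, oligosaccharyltransferase, COPII and COPI genes. They were found by their Ensembl identifiers among 53801 mouse genes, and all 43 were among the 17823 genes that were tested because their mean was 0.5 TPM or more. RNA was sequenced from 6 clonal lines of MIN6, an insulinoma line from mouse that serves as a β cell model, with 1 library per clone. In the 3 control clones Cas9 was targeted to intron 2 of *Snd1*, and in the 3 *Snd1* KO clones to exon 2. By the paper, the KO lines came from different exon 2 gRNAs and were chosen as SND1-deficient by immunoblot. They carried different indels, with a major deletion in 1 of them. Whether the paper's line numbers match the sample labels is not stated there. All 6 lines derive from MIN6 cells that express Cas9, were infected with lentivirus carrying a gRNA, selected with puromycin and grown from single cells, so that each line is 1 clone and the spread between clones is the error of every comparison. The comparison asks whether RNA of these genes differs when *Snd1*, which encodes a transcriptional coregulator, is disrupted.

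A secretory protein is made on ribosomes that the signal recognition particle (SRP) pauses and brings to its receptor on the ER. The chain enters through the SEC61 channel with help from the translocon-associated proteins, its signal peptide is cut by signal peptidase, and oligosaccharyltransferase attaches N-glycans to the cargo that needs them. COPII vesicles then carry folded cargo towards the Golgi and COPI vesicles bring proteins back. Proinsulin uses the entry, cleavage and COPII steps and carries no N-glycan itself, and β cells send a large share of their protein synthesis through this route.

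Values are TPM, reads per gene length scaled to 1000000 per clone, and fold changes are differences of mean log2(TPM + 1) with Benjamini-Hochberg adjustment over all tested genes. Reads recovered from the TPM numbered 25801145 to 32986209 per clone, and every secretory entry gene held at least 810 reads in every clone, so counting error was at most 3.51% of a value if these reads are independent. These recovered totals were above the reads per library that the paper gives. Whether both mates of a pair were counted is not given in the sources used here, and where they were the counting error is larger. *Snd1* was measured at 113, 119 and 112 TPM in Controls 1 to 3 and 14.7, 57.1 and 19.9 TPM in *Snd1* KO 1 to 3 (log2 fold change −2.11, SE 0.45, limma adjusted p = 0.511). All KO clones were below all control clones, and *Snd1* KO 2 kept the most *Snd1* RNA. An indel in an exon need not remove the RNA, so this checks the labels only in part. Control 3 stood apart from the other controls, as its Pearson correlation with Controls 1 and 2 across 11368 genes was 0.943 and 0.936, against 0.980 between these 2, and its mitochondrial share of TPM was 9.17% against 13.6% to 16.4% in the other 5 clones. Control 3 correlated better with *Snd1* KO 2 and 3 (0.949 and 0.955) than with the other controls. *Snd1* KO 1 also stood apart in its group, at 0.922 and 0.933 with *Snd1* KO 2 and 3, against 0.974 between the latter. All 12 β cell markers passed the filter and summed to between 48077 and 81801 TPM in Controls 1 to 3 and between 52602 and 89644 TPM in the *Snd1* KO clones. Of 6 exocrine markers 0 passed (sums of at most 1.20 TPM in control clones, 0.407 TPM in KO clones), with *Cpa1*, *Ptf1a* and *Krt19* at no more than 3 reads, and of 8 stromal, endothelial and immune markers 1 passed (at most 5.50 and 3.27 TPM). Of 6 markers of other islet endocrine cells 2 passed, and the 6 summed to 14435 to 20312 TPM in control and 3088 to 8921 TPM in *Snd1* KO clones, mostly *Ttr*, though *Gcg* made up 22.5% of the sum in *Snd1* KO 1, while *Hhex* and *Ppy* were at no more than 3 reads. Their part in the results below was not tested.

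Promoters were read to see what the genes share in sequence, since a group of ER genes is controlled through the elements bound by ATF6 and XBP1, the transcription factors of the unfolded protein response. RefSeq (GRCm38.p6) gave promoters for 35 of the 43 genes, and the 250 bases before each RefSeq start were searched on both strands. Some of these windows lie partly or wholly inside the gene as GENCODE M21 places it, as for *Sec24b* and *Spcs2*, and were counted. The UPRE letters TGACGTGG, the core of an XBP1 and ATF6 element, were found in 2 of 38 promoters of the secretory entry genes (5.26%) and in 0.563% of 32851 promoters in all, namely in *Sec24d* and *Copb1*. The ERSE letters, CCAAT and CCACG spaced by 9 bases, were in 0 of the 38 promoters, in 0.113% of all promoters and in 8 of 17 promoters of an ER folding list used for comparison (47.1%), which held TGACGTGG in 0 of 17. The shorter CCACG, which ERSE and, read on the other strand, TGACGTGG both contain, was in 19 of 38 promoters (50%) and in 13 of 17 of the folding list (76.5%), against 28.3% of all. A match describes letters in this window only. The 3 stretches that follow are shown because they hold these elements in genes described further on, with the matches in capitals. *Sec24d* is at chr3:123267246-123267479 on the plus strand and *Copb1* at chr7:114254687-114254930 on the minus strand, both with TGACGTGG in capitals, which reads CCACGTCA in the direction of *Copb1*. *Ssr3* is at chr3:65392599-65392803 on the minus strand, with CCACG in capitals. Each stretch is written 5′ to 3′ in the direction of its gene and ends 25 bases inside the gene as GENCODE M21 places it, and both UPRE matches lie within those 25 bases.
*Sec24d*: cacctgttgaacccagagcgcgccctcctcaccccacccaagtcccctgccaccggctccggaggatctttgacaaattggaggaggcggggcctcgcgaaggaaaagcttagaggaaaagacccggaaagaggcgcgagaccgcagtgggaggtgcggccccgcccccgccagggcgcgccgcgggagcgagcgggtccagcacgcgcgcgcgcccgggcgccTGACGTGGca
*Copb1*: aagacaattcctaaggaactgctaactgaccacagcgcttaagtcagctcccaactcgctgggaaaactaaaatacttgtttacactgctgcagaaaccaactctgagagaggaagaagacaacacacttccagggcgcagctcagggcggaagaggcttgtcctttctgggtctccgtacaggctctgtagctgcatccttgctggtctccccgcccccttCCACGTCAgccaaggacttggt
*Ssr3*: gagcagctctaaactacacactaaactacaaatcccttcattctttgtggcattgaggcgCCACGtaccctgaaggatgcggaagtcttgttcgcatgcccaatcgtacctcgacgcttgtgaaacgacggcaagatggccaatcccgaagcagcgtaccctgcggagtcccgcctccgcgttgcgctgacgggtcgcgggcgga

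The 43 genes were well expressed. Mean TPM ran from 17.9 for *Sec24a* to 1716 for *Ddost*, and with each exonic base counted once the leading genes per length were *Ddost* (1076 TPM), *Rpn2* (875 TPM) and *Ssr2* (793 TPM). No gene of the 43 passed the threshold of an adjusted p under 0.05 and a 2-fold change in *Snd1* KO, where 0.00561% of all tested genes did (1 of 17823). The count was also 0 with limma voom on the recovered reads, and 0 of the 43 had an unadjusted p under 0.05 by limma, against 7.96% of all genes. The lowest adjusted p was 0.607. *Snd1* itself, the targeted gene, did not pass the threshold either (limma adjusted p = 0.511). With the same limits on fold change and false discovery rate, the paper reports many more differentially expressed genes, in both directions. The low count here therefore does not show that few genes differ, and the reason for the gap was not tested. Differences of the 43 genes were small and mostly negative. The mean was lower in *Snd1* KO for 35 of 43 genes, against 42.7% of all genes. Their median log2 fold change was −0.15, against 0.044 over all genes. Log2 fold changes of the 43 genes ran from −0.50 for *Rpn2* to 0.21 for *Sec62*. Every one of the 43 intervals (95%) included 0, and for 38 genes the interval lay within a 2-fold change in either direction, so that increases beyond 2-fold were outside the interval for all 43 genes and decreases beyond 2-fold for those 38. All *Snd1* KO clones lay below all control clones for 1 gene, *Rpn2* (4.03% of all genes), and above for 1, *Sec62* (9.69% of all genes). After rescaling without insulin and mitochondrial genes the count below was 0. *Rpn2* overlaps *Mroh8* and *Sec62* overlaps *4933429H19Rik*, each on the other strand. As the libraries do not mark strand, reads may be shared there. In RNA from whole cultures, fewer cells of a type and less RNA per cell cannot be told apart.

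**Figure D1:**
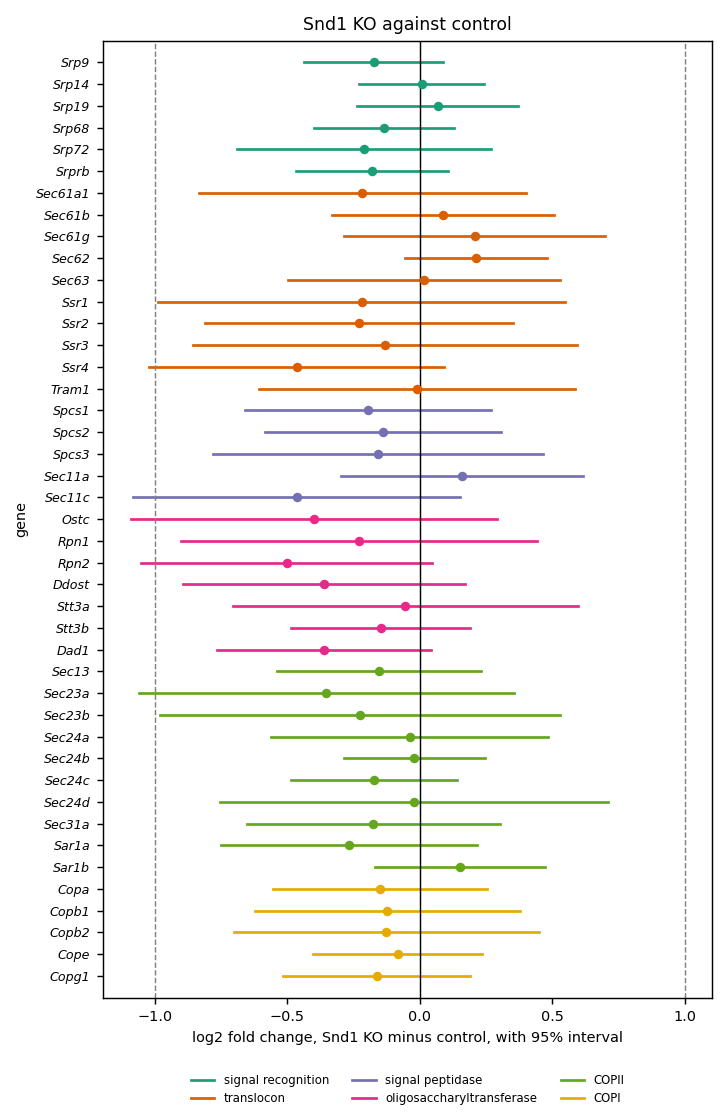
Log2 fold change (difference of mean log2(TPM + 1), *Snd1* KO minus control, x axis) of each of the 43 genes (y axis, coloured by role), with its 95% interval from limma over 3 and 3 clones and dashed lines at a 2-fold change. All 43 intervals cross 0, and 35 of the 43 points lie to its left.

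Signal recognition genes differed little between the groups. Of the 6 genes, 4 had a lower mean in *Snd1* KO, the median log2 fold change was −0.15 and the range was −0.21 to 0.068. *Srp14*, which with SRP9 forms the part of the particle that pauses translation, was measured at 179, 168 and 186 TPM in Controls 1 to 3 and 187, 181 and 168 TPM in *Snd1* KO 1 to 3. The groups overlapped and their means were nearly equal, with a difference that turned negative with median ratio scaling, 178 ± 9.14 and 179 ± 9.70 TPM (SD, n = 3 each). *Srp68*, whose protein joins SRP72 on the SRP RNA, was at 129.8, 135 and 127 TPM in Controls 1 to 3 and 133, 109 and 115 TPM in *Snd1* KO 1 to 3 (log2 fold change −0.14, SE 0.11, limma adjusted p = 0.758). *Snd1* KO 2 and 3 were below every control and *Snd1* KO 1 lay among them. *Srp9*, *Srp19*, *Srp72* and the receptor subunit gene *Srprb* were within the range given.

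Among 10 translocon genes, 6 had a lower mean in *Snd1* KO and the median log2 fold change was −0.071. *Sec62* (chr3:30792875-30821263), a partner of SEC63 and SEC61 in the import of short and finished chains, was at 239.6, 237 and 199 TPM in Controls 1 to 3 and 262, 254 and 265 TPM in *Snd1* KO 1 to 3. Every *Snd1* KO clone was above every control clone, and the KO clones were close to each other. The log2 fold change was 0.21 (SE 0.11, 95% interval −0.057 to 0.48, limma adjusted p = 0.639), and the exact two-sided permutation test gave p = 0.1, the smallest that 3 against 3 clones allow. *Sec61g*, the small γ subunit of the channel, was at 77.1, 69.6 and 48.6 TPM in Controls 1 to 3 and 88.8, 71.8 and 63.3 TPM in *Snd1* KO 1 to 3 (log2 fold change 0.21, SE 0.21, limma adjusted p = 0.798). Without Control 3 the log2 fold change was 0.013, and with clone quality weights it was −0.11. The gene is uncertain because 4 near-identical copies elsewhere in the genome together held 112% of its own TPM. *Ssr4*, a subunit of the translocon-associated protein complex that helps proinsulin enter, was at 187, 183 and 268 TPM in Controls 1 to 3 and 198, 117 and 149.8 TPM in *Snd1* KO 1 to 3 (log2 fold change −0.46, SE 0.23, limma adjusted p = 0.618). Control 3 was the highest clone, and *Snd1* KO 1 lay above the other 2 controls.

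The most abundant translocon genes by TPM showed wide differences among the KO clones in place of a group difference. *Ssr3*, another translocon-associated protein, was at 669, 643 and 469 TPM in Controls 1 to 3 and 801, 360.0 and 533 TPM in *Snd1* KO 1 to 3 (log2 fold change −0.13, SE 0.30, limma adjusted p = 0.93). *Tram1*, which contacts chains as they enter, was at 685, 666 and 474 TPM in Controls 1 to 3 and 803, 451 and 582 TPM in *Snd1* KO 1 to 3 (log2 fold change −0.012, SE 0.25, limma adjusted p = 0.995). In both genes *Snd1* KO 1 was the highest and *Snd1* KO 2 the lowest of all 6 clones, with Control 3 next to *Snd1* KO 2. The direction of *Tram1* turned to higher with quantile normalization, and when insulin and mitochondrial genes were taken out before rescaling. The remaining translocon genes, *Sec61a1* and *Sec61b* of the channel, *Sec63*, *Ssr1* and *Ssr2*, had log2 fold changes between −0.23 and 0.088.

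All 5 signal peptidase genes were at least 1.5-fold higher in *Snd1* KO 1 than in *Snd1* KO 2, and 4 of the 5 had a lower mean in *Snd1* KO (median log2 fold change −0.16). Signal peptidase cuts with SEC11A or SEC11C, in 2 forms of the enzyme that share the SPCS subunits. *Sec11c* was at 127, 127 and 128 TPM in Controls 1 to 3 and 142, 68.3 and 81.0 TPM in *Snd1* KO 1 to 3 (log2 fold change −0.46, SE 0.26, limma adjusted p = 0.656). The controls were nearly identical, *Snd1* KO 2 and 3 were far below them, and *Snd1* KO 1 was above them. *Sec11a* was at 36.8, 35.4 and 45.1 TPM in Controls 1 to 3 and 56.4, 35.8 and 41.1 TPM in *Snd1* KO 1 to 3 (log2 fold change 0.16, SE 0.19, limma adjusted p = 0.837), so that *Snd1* KO 1 was highest and the other clones overlapped. *Sec11a* overlaps 3 annotated genes, *Nmb* among them and 2 on its own strand, so its reads may be split. The accessory subunit gene *Spcs3*, the most abundant of the role by TPM, was at 626, 647 and 438 TPM in Controls 1 to 3 and 695, 378 and 486 TPM in *Snd1* KO 1 to 3. *Spcs1* was at 142, 138 and 169.5 TPM in Controls 1 to 3 and 174, 115 and 111 TPM in *Snd1* KO 1 to 3. Both overlapped between the groups, and the log2 fold changes of *Spcs1*, *Spcs2* and *Spcs3* were −0.20, −0.14 and −0.16.

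Oligosaccharyltransferase genes had the lowest median of the 6 roles, a log2 fold change of −0.36, and all 7 had a lower mean in *Snd1* KO. The median was −0.14 without *Snd1* KO 2, with 5 of 7 lower, and −0.55 without *Snd1* KO 1. *Rpn2* (chr2:157279017-157326319), which encodes ribophorin II, a structural subunit of the enzyme, was at 482, 496 and 609.9 TPM in Controls 1 to 3 and 474, 266 and 407 TPM in *Snd1* KO 1 to 3. Every KO clone was below every control clone, although *Snd1* KO 1 and Control 1 were 474 and 482 TPM and nearly touched. The difference was −0.50 on the log2 scale (SE 0.23, 95% interval −1.05 to 0.047, limma adjusted p = 0.607), with p = 0.1 in the exact two-sided permutation test. *Ddost* (chr4:138304730-138312628), the OST48 subunit and the most abundant gene of the list, was at 1812, 1793 and 2135 TPM in Controls 1 to 3 and 1926, 1129.8 and 1502 TPM in *Snd1* KO 1 to 3 (log2 fold change −0.36, SE 0.22, limma adjusted p = 0.692). *Snd1* KO 2 and 3 were below all controls, and *Snd1* KO 1 was above Controls 1 and 2. *Stt3a* and *Stt3b* encode the catalytic subunits of the 2 forms of the enzyme, which act during and after entry of the chain. *Stt3a* was at 227, 216 and 192 TPM in Controls 1 to 3 and 310.2, 143 and 189 TPM in *Snd1* KO 1 to 3 (log2 fold change −0.055). *Stt3b* was at 284, 288 and 246 TPM in Controls 1 to 3 and 288, 214 and 239.9 TPM in *Snd1* KO 1 to 3 (log2 fold change −0.15). Both were lowest in *Snd1* KO 2, and *Snd1* KO 1 was the highest clone for *Stt3a* but level with the controls for *Stt3b*.

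Of 10 COPII genes, 9 had a lower mean in *Snd1* KO, with a median log2 fold change of −0.16. The small GTPases SAR1A and SAR1B start the coat at ER exit sites. *Sar1a* was at 252, 259 and 242 TPM in Controls 1 to 3 and 284, 164 and 193 TPM in *Snd1* KO 1 to 3 (log2 fold change −0.27, SE 0.20, limma adjusted p = 0.749), with *Snd1* KO 2 and 3 below the controls and *Snd1* KO 1 above them. *Sar1b* was at 285, 262 and 283 TPM in Controls 1 to 3 and 357, 305 and 265 TPM in *Snd1* KO 1 to 3 (log2 fold change 0.15, SE 0.13, limma adjusted p = 0.768), and only *Snd1* KO 3 was within the range of the controls. SEC23 and SEC24 form the inner layer, where SEC24 binds cargo. *Sec23a* was at 39.2, 40.1 and 19.5 TPM in Controls 1 to 3 and 28.0, 19.7 and 26.2 TPM in *Snd1* KO 1 to 3 (log2 fold change −0.35, SE 0.30, limma adjusted p = 0.758). Control 3 was as low as *Snd1* KO 2, so the groups overlapped, and without Control 3 all KO clones were below the controls. *Sec23b* was at 80.8, 78.5 and 63.3 TPM in Controls 1 to 3 and 106, 44.8 and 52.4 TPM in *Snd1* KO 1 to 3 (log2 fold change −0.22, SE 0.32, limma adjusted p = 0.867), with *Snd1* KO 1 highest and *Snd1* KO 2 and 3 lowest.

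The 4 *Sec24* genes differed in how far the KO clones spread. *Sec24d*, one of the UPRE promoters shown, was at 59.8, 66.5 and 64.2 TPM in Controls 1 to 3 and 102, 40.9 and 58.2 TPM in *Snd1* KO 1 to 3. *Snd1* KO 1 was far above and *Snd1* KO 2 far below the tight controls, a ratio of 2.49 that was the largest of the 43 genes, while the group means were alike (log2 fold change −0.022, SE 0.31, limma adjusted p = 0.993). *Sec24a* was at 19.3, 20.0 and 14.7 TPM in Controls 1 to 3 and 22.5, 13.2 and 17.4 TPM in *Snd1* KO 1 to 3, with the same highest and lowest clones and a ratio of 1.70. *Sec24b* was at 35.8, 36.9 and 39.8 TPM in Controls 1 to 3 and 40.8, 35.6 and 34.8 TPM in *Snd1* KO 1 to 3. *Sec24c* was at 69.6, 67.2 and 62.0 TPM in Controls 1 to 3 and 68.9, 52.2 and 55.9 TPM in *Snd1* KO 1 to 3. These 2 genes spread little, with ratios of 1.15 and 1.32 between *Snd1* KO 1 and 2, and the log2 fold changes of *Sec24a*, *Sec24b* and *Sec24c* were −0.038, −0.020 and −0.17. Those of *Sec24a*, *Sec24b* and *Sec24d* turned positive after rescaling without insulin and mitochondrial genes. The outer coat genes *Sec13* and *Sec31a* had log2 fold changes of −0.15 and −0.18.

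All 5 COPI genes, which encode subunits of coatomer, had a lower mean in *Snd1* KO by little (log2 fold changes −0.16 to −0.084). Without *Snd1* KO 2, 3 of the 5 were lower and the median was −0.014, against −0.13 with all clones. *Copb2*, the β′ subunit, was at 387, 391 and 319 TPM in Controls 1 to 3 and 475, 249.8 and 312 TPM in *Snd1* KO 1 to 3 (log2 fold change −0.13, SE 0.24, limma adjusted p = 0.908). *Copb1*, the β subunit and the other UPRE promoter shown, was at 279.7, 273 and 221 TPM in Controls 1 to 3 and 315, 187 and 222 TPM in *Snd1* KO 1 to 3 (log2 fold change −0.12, SE 0.21, limma adjusted p = 0.896). For both genes *Snd1* KO 1 was the highest clone, *Snd1* KO 2 the lowest, and *Snd1* KO 3 next to Control 3. *Copa*, *Cope* and *Copg1* were within the range given. Over the whole list, 18 genes fell outside the rule for naming, with mean TPM from 38.3 to 473 and log2 fold changes from −0.40 to 0.088, 15 of them negative.

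**Figure D2:**
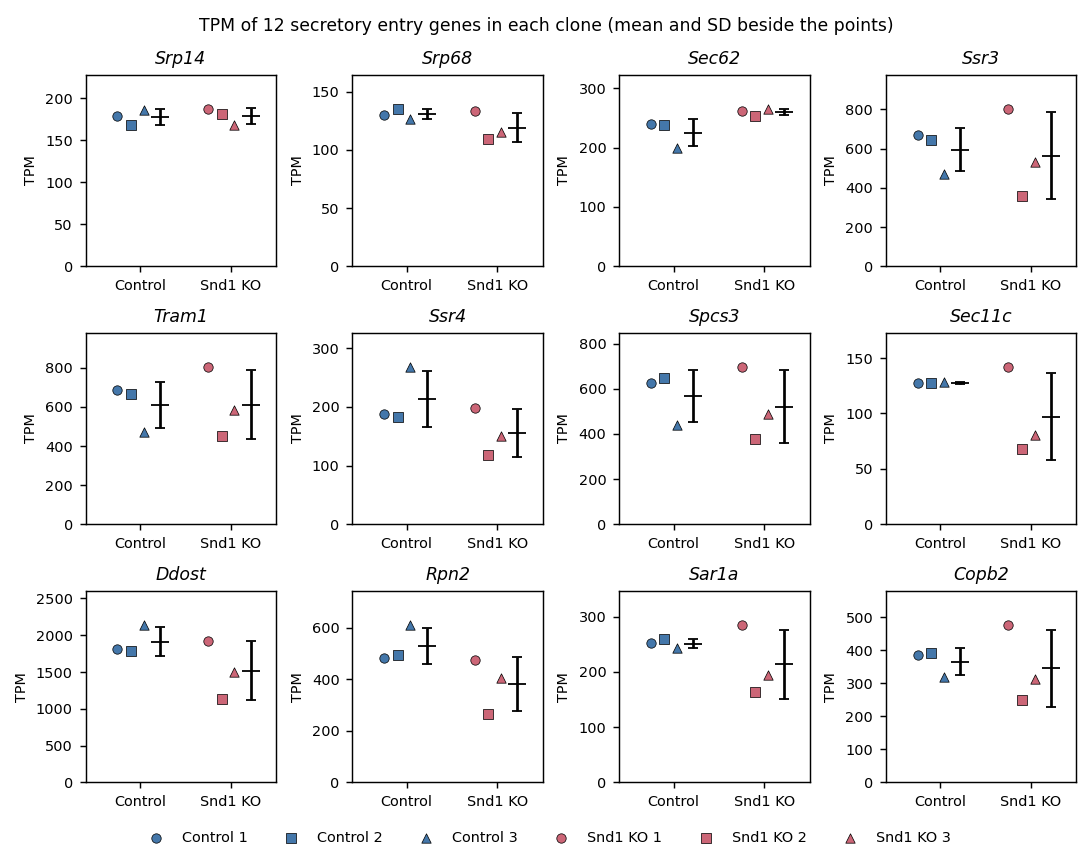
TPM (y axis, starting at 0) of 12 of the genes in each of 3 control and 3 *Snd1* KO clones (x axis), with the mean and SD of each group beside its points. *Sec62* and *Rpn2* are the 2 genes whose groups do not overlap, and in *Ssr3*, *Tram1* and *Copb2* the circle of *Snd1* KO 1 is the highest and the square of *Snd1* KO 2 the lowest point.

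Ratios within a clone show whether related genes that serve 1 step moved apart, and do not depend on how clones are scaled. Of 7 ratios, 2 had groups that did not overlap. The log2 ratio of *Sec11a* to *Sec11c*, the alternative catalytic subunits of signal peptidase, was −1.79, −1.85 and −1.51 in Controls 1 to 3 and −1.33, −0.93 and −0.98 in *Snd1* KO 1 to 3. All 3 KO clones were higher, so that *Sec11a* came nearer to *Sec11c*, by 0.63 on the log2 scale. The log2 ratio of *Sar1a* to *Sar1b* was −0.18, −0.018 and −0.22 in Controls 1 to 3 and −0.33, −0.89 and −0.46 in *Snd1* KO 1 to 3. All 3 KO clones were lower, by 0.42 on average. Both differences had p = 0.1 in the exact two-sided permutation test, the smallest that the design allows, and p = 0.35 after adjustment over the 7 ratios, so neither passed the test. For *Sec11a* the overlap with *Nmb* applies here too. The ratios *Sec23a* to *Sec23b*, *Sec24a* to *Sec24b*, *Sec24c* to *Sec24d*, *Sec24d* to *Sec24a* and *Stt3a* to *Stt3b* overlapped between the groups, with exact permutation p between 0.6 and 1 and mean differences between −0.15 and 0.093. The direction of these 5 turned when single clones were left out. *Stt3a* to *Stt3b* was steady in the controls (log2 ratio −0.37 ± 0.046, SD, n = 3) and spread widely in *Snd1* KO (−0.27 ± 0.35, SD, n = 3).

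**Figure D3:**
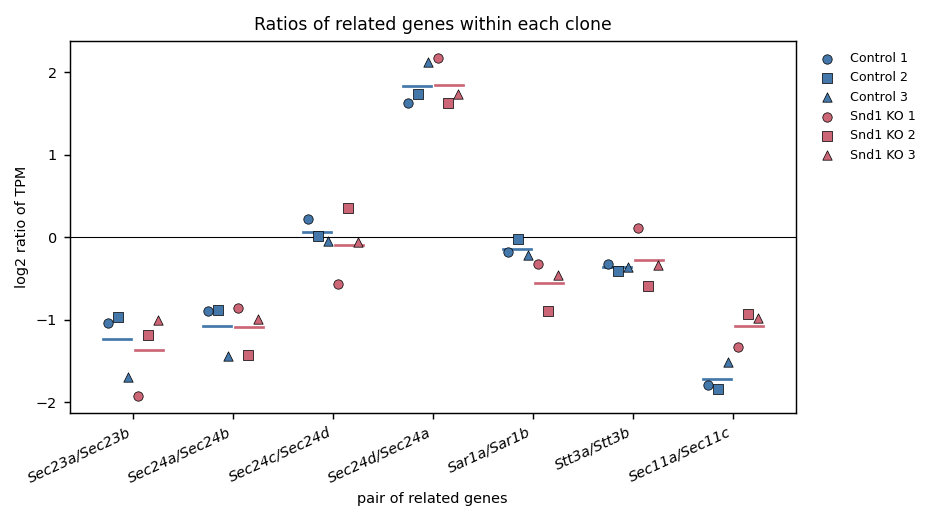
Log2 ratio of the TPM of related genes (y axis) for 7 pairs (x axis) in each control and *Snd1* KO clone, with bars at the group means. The KO points lie below all control points for *Sar1a*/*Sar1b* and above all of them for *Sec11a*/*Sec11c*, and the other 5 pairs overlap.

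The 43 genes also set the KO clones apart from each other. *Snd1* KO 1 was the highest of the 6 clones for 29 of 43 genes (21.5% of all genes) and *Snd1* KO 2 the lowest for 33 (14.7% of all genes). Both held for 22 of 43, or 51.2%, against 5.29% of all genes. This order was noticed after the values were seen, and the clones are not groups of the study, so the counts are a description without a test. *Snd1* KO 1, 3 and 2 followed in this order, from high to low, in 35 of 43 genes (22.0% of all genes), and the KO clones varied more than the controls in 39 of 43 (53.5% of all genes). The median SD of log2(TPM + 1) was 0.13 among controls and 0.36 among KO clones for the 43 genes, and 0.22 and 0.24 for all genes. *Snd1* KO 1 exceeded *Snd1* KO 2 by at least 1.5-fold, on the scale of TPM + 1, in 25 of 43 genes (12.9% of all genes), all 43 were higher in *Snd1* KO 1 than in *Snd1* KO 2, and the median difference was 0.73 on the log2 scale, against −0.035 for all genes and −0.0013 for the 6900 genes at least as abundant as *Sec24a*. By role the median difference was 0.27 for signal recognition, 0.80 for the translocon, 0.73 for signal peptidase, 0.83 for oligosaccharyltransferase, 0.65 for COPII and 0.56 for COPI. Genes with the largest ratio of TPM after *Sec24d* were *Ssr1* (2.39) and *Sec23b* (2.37), and those with the smallest were *Sec62* (1.03) and *Srp14* (1.03). *Sec62* did not separate the KO clones, and *Rpn2* and *Ddost* had the same order among KO clones but were highest in Control 3.

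**Figure D4:**
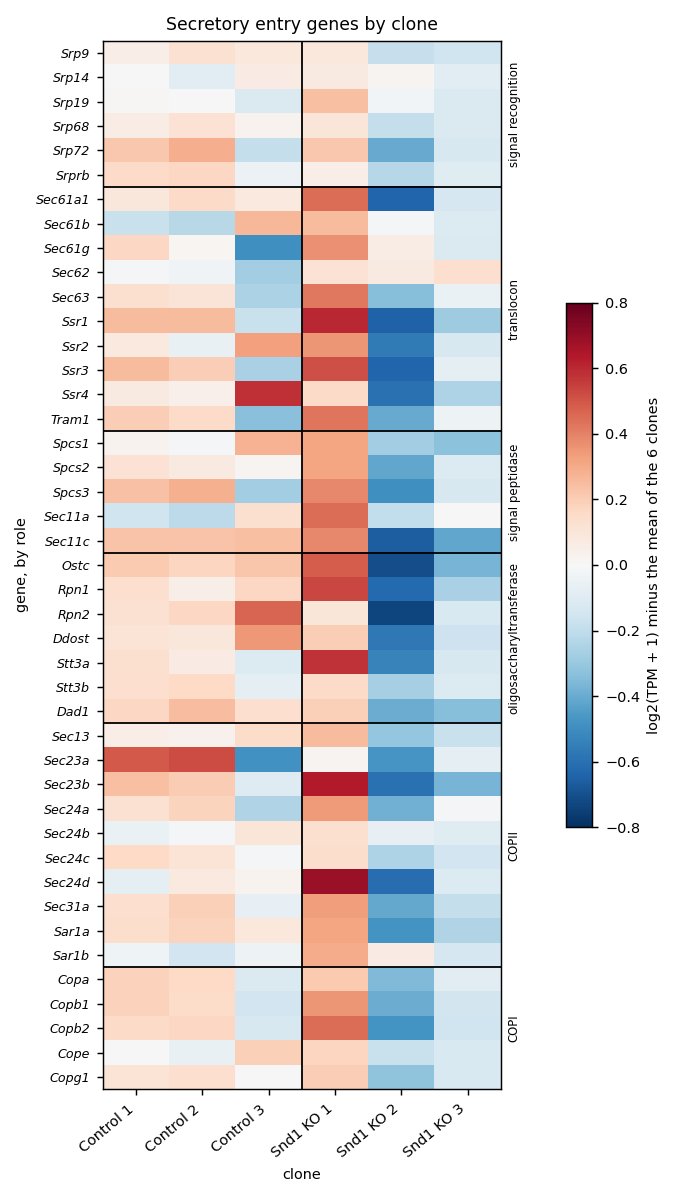
Deviation of log2(TPM + 1) from the mean of the 6 clones (colour, from −0.8 in blue to 0.8 in red) for the 43 genes in rows, grouped by role, and the 6 clones in columns. The column of *Snd1* KO 1 is mostly red and that of *Snd1* KO 2 mostly blue, with median deviations of 0.31 and −0.40, while *Snd1* KO 3 is pale blue at −0.13.

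Summed over the 43 genes, the level was 11008, 10866 and 10735 TPM in Controls 1 to 3 and 12656, 7537 and 9141 TPM in *Snd1* KO 1 to 3. The controls were within a narrow range, with *Snd1* KO 1 above it and the other 2 KO clones below. As a share of recovered reads the list took 1.26%, 1.25% and 1.32% in the controls and 1.46%, 0.883% and 1.04% in the KO clones. The insulin genes did not share one order of clones. *Ins1* was at 2429, 4086 and 6033 TPM in Controls 1 to 3 and 2059, 11945 and 8219 TPM in *Snd1* KO 1 to 3, lowest in *Snd1* KO 1 and highest in *Snd1* KO 2. *Ins2* was at 14480, 13976 and 18632 TPM in Controls 1 to 3 and 12195, 15716 and 11194 TPM in *Snd1* KO 1 to 3, lowest in *Snd1* KO 3 and highest in Control 3. As a share of recovered reads both genes together took 1.17%, 1.17% and 1.72% in Controls 1 to 3 and 1.001%, 1.52% and 1.03% in *Snd1* KO 1 to 3. By reads *Snd1* KO 1 was the lowest and Control 3 the highest clone, while by summed TPM the highest was *Snd1* KO 2 (27661 TPM, against 24665 TPM in Control 3). The glucagon gene *Gcg*, an α cell marker, was at 267, 174 and 314 TPM in Controls 1 to 3 and 1099.8, 55.2 and 148 TPM in *Snd1* KO 1 to 3. *Gcg* was highest in *Snd1* KO 1 and lowest in *Snd1* KO 2, as were many of the 43 genes, and *Snd1* itself was lowest in *Snd1* KO 1 and highest, among KO clones, in *Snd1* KO 2. *Ttr*, the other passing marker of other islet endocrine cells, went another way. It was at 17590, 20138 and 14121.5 TPM in Controls 1 to 3. In *Snd1* KO 1 to 3 it was at 3796, 3032 and 8774 TPM, below every control. The part of these in the distance between the clones was not tested.

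The comparison with control depended on *Snd1* KO 1. Without that clone, *Snd1* KO was lower in 40 of 43 genes, with a median log2 fold change of −0.33 against 0.059 over all genes. Both remaining KO clones were below all controls for 27 of 43 genes (62.8%, against 10.9% of all genes), which included all 7 oligosaccharyltransferase genes, and above all controls for 1, *Sec62* (22.6% of all genes). An unadjusted p under 0.05 in limma was found for 19 of 43, all lower (44.2%, against 14.3% of all genes in either direction and 4.6% lower). None passed adjustment, and the lowest adjusted p was 0.152. Without *Snd1* KO 2 the median was −0.0020 and 22 of 43 genes were lower (44.1% of all genes). By role 5 of 6 signal recognition, 2 of 10 translocon, 2 of 5 signal peptidase and 5 of 10 COPII genes were then lower. Without Control 3 the median was −0.20 and 35 genes were lower, and the groups did not overlap for *Srprb*, *Rpn2* and *Sec23a*, which were lower (17.8% of all genes), and *Sec61b* and *Sec62*, which were higher (17.2% of all genes), with an unadjusted p under 0.05 for *Sec23a* alone by limma (13.9% of all genes, 6.86% lower). With clone quality weights, which gave Control 3 and *Snd1* KO 1 the weights 0.279 and 0.286, 2 of the 43 genes had an adjusted p under 0.05 by limma (4.65%, against 12.1% of all genes, and 5.04% lower). They were *Dad1*, an oligosaccharyltransferase subunit (log2 fold change −0.52, adjusted p = 0.0238), and *Sec11c* (−0.63, adjusted p = 0.031), and neither reached a 2-fold change as well, as 5.02% of all genes did. *Dad1*, named after its values were seen, was at 133, 141 and 129.9 TPM in Controls 1 to 3 and 135, 90.0 and 93.5 TPM in *Snd1* KO 1 to 3, and *Snd1* KO 1 lay among the controls.

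The same was looked for in 106 other genes of the pathway, chosen by role, of which 104 were tested. None passed the adjusted threshold by limma, 4 had an unadjusted p under 0.05 (3.85%, against 7.96% of all genes), and 81 of 104 had a lower mean in *Snd1* KO (77.9%, against 42.7%), with a median log2 fold change of −0.12. With clone quality weights 16 of the 104 had an adjusted p under 0.05 by limma (15.4%, against 12.1% of all genes), 15 of them lower (14.4%, against 5.04% of all genes), such as *Krtcap2* (adjusted p = 0.0268) and *Tusc3* (adjusted p = 0.0391). Groups did not overlap for 12 lower (11.5%, against 4.03% of all genes) and 3 higher genes (2.88%, against 9.69%). *Krtcap2*, a further oligosaccharyltransferase subunit, was at 174, 165 and 201 TPM in Controls 1 to 3 and 151, 109.6 and 126 TPM in *Snd1* KO 1 to 3 (log2 fold change −0.48, SE 0.15, limma adjusted p = 0.568). *Tusc3*, which encodes an oxidoreductase subunit of the STT3B form, was at 78.3, 73.3 and 64.7 TPM in Controls 1 to 3 and 57.9, 56.6 and 61.3 TPM in *Snd1* KO 1 to 3 (log2 fold change −0.29, SE 0.11, limma adjusted p = 0.605). In both genes the KO clones lay below the controls, and in *Tusc3* also close together. *Nomo1*, a translocon-associated membrane protein, was at 203, 222 and 191 TPM in Controls 1 to 3 and 169, 96.0 and 157 TPM in *Snd1* KO 1 to 3 (log2 fold change −0.58, SE 0.22, limma adjusted p = 0.605), with *Snd1* KO 2 lowest. *Tmem208*, a component of the SRP-independent route of targeting, was at 34.2, 35.3 and 49.0 TPM in Controls 1 to 3 and 20.1, 32.0 and 29.7 TPM in *Snd1* KO 1 to 3 (log2 fold change −0.53, SE 0.22, limma adjusted p = 0.607), with *Snd1* KO 1 as the lowest clone. The others named by rule were *Sec16b* (−0.61) and *Emc9* (−0.29), which were lower, and *Dpm1* (0.29), *Emc8* (0.26) and *Tmco1* (0.13), which were higher, all as log2 fold changes. *Snd1* KO 1 exceeded *Snd1* KO 2 by at least 1.5-fold in 35 of the 104 genes (33.7%), with a median difference of 0.30. Cargo receptors and fusion genes had a median difference of 0.62, and the ER membrane complex, which inserts membrane proteins by another path, 0.11. Over all groups of this list the medians ran from 0.017 for the tail-anchor and SRP-independent routes to 0.74 for other SRP and receptor genes. The other translocon genes had 0.029, unlike the listed ones.

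An ER folding list of 20 chaperones and unfolded protein response genes also had *Snd1* KO 1 as the highest and *Snd1* KO 2 as the lowest clone in its summed TPM. *Hspa5*, the chaperone BiP that pulls chains through the channel, was at 1287, 1184 and 1178 TPM in Controls 1 to 3 and 1469, 646 and 906 TPM in *Snd1* KO 1 to 3. *Snd1* KO 1 was the highest and *Snd1* KO 2 the lowest clone. The median difference between these 2 clones was 1.18 on the log2 scale, from −0.37 for *Herpud1* to 1.91 for *Hyou1*, and 18 of 20 genes (90%) differed by at least 1.5-fold, against 12.9% of all genes. The summed TPM of the list was 10876, 10216 and 9494 in Controls 1 to 3 and 13831, 6121 and 7976 in *Snd1* KO 1 to 3, which is the order of clones seen for the summed secretory entry genes. Against control, 17 of 20 had a lower mean (85%, against 42.7% of all genes), with a median log2 fold change of −0.25. None had an unadjusted p under 0.05 by limma (7.96% of all genes), and the groups overlapped for all 20, where 4.03% of all genes were lower and 9.69% higher without overlap. With clone quality weights 2 of 20 had an adjusted p under 0.05 by limma (10%, against 12.1% of all genes), both lower. Among the 35 secretory entry genes with a promoter sequence, the median difference between *Snd1* KO 1 and 2 was 0.75 for the 18 with CCACG, such as *Ssr3*, and 0.57 for the 17 without it. Genes with the motif spanned 0.19 to 1.30 and those without it 0.045 to 1.23, so the 2 sets overlapped over most of their range. A split by CCAAT was about as large, at 0.76 for the 14 genes with it and 0.57 for the 21 without it. The difference was therefore not particular to CCACG.

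**Figure D5:**
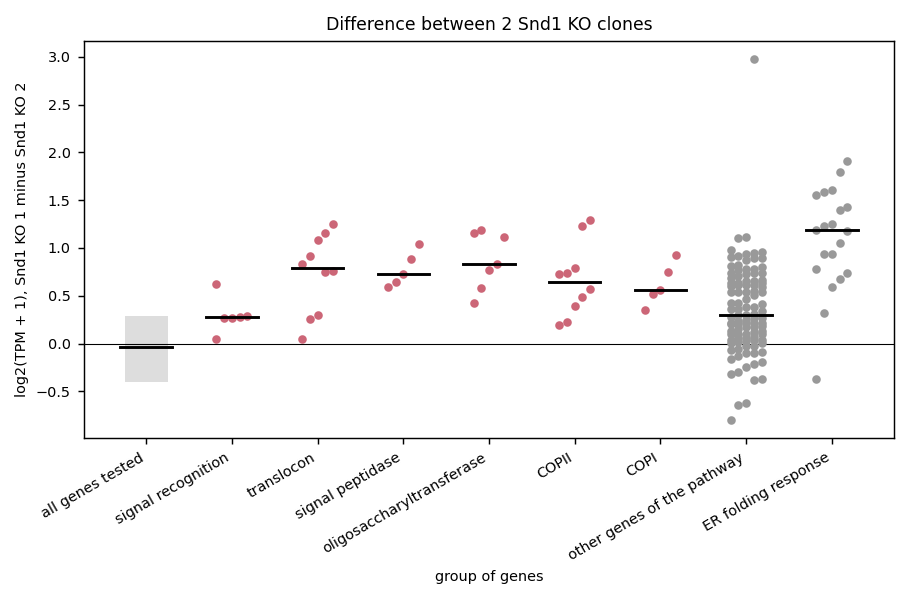
Difference of log2(TPM + 1) between *Snd1* KO 1 and *Snd1* KO 2 (y axis) for each gene of the 6 roles, the other pathway genes and the ER folding list (x axis), with a bar at each median and, for all tested genes, a box from the first to the third quartile, −0.40 to 0.29. Medians of the 6 roles lie between 0.27 and 0.83, that of the ER folding list at 1.18 and that of all genes at −0.035.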

How the data were processed

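RNA-sequencing of 3 control and 3 *Snd1* KO MIN6 clones was analysed, grouped by the sample labels. Libraries were made by the authors from 100 ng of RNA (Takara cDNA, Nextera XT), a preparation that does not mark strand, and sequenced as paired ends, and the reads were processed on the Genialis platform. The submitters' processing notes name FastQC, Trimmomatic, HISAT2, HTSeq, DESeq2 and the build mm10, without versions. The authors deposited 1 TPM value per gene and clone. Of the genes, 53706 were matched to GENCODE M21 (GRCm38), and 99 spike-in rows, at most 1.02 TPM in a clone, were left out. With gene length taken as the sum of all annotated exons, each transcript counted, TPM times length gave whole reads, within 0.01, for 91.7% of genes in all clones, and after a search for other lengths for 99.999% of values. Since summed lengths set the scale, levels of different genes were also compared with each exonic base counted once. Depth covers counting error only.

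log2(TPM + 1) of 17823 genes, those averaging 0.5 TPM or more, was compared by limma 3.58.1 (lmFit, eBayes with a trend, R 4.3.3) and Benjamini-Hochberg adjusted, and ratios by exact two-sided permutation tests with scipy 1.17.1. The alternatives were a pseudocount of 0.1, other filters, scalings, weights and trends, a replicate block, voom on recovered reads, other gene lengths and leaving out each clone. Named genes were those without overlap between groups, the 2 with the highest mean TPM in each role, those in a ratio, the 3 with the largest log2 fold change in each direction and those with an unadjusted p under 0.05. Of the other pathway genes, up to 6 in each direction without overlap were named. The 43 genes, the other lists and the rules were chosen with earlier results of these data known. A further marker that had been listed for other islet endocrine cells is not reported here. GENCODE M21 shows 21 of the 43 genes overlapping another gene and 4 (*Srp9*, *Sec61b*, *Sec61g*, *Spcs2*) with near-identical copies, at least 95% over 200 bases, where reads may be shared.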

Additional observations from a re-analysis of the deposited data

How the results depend on the processing

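The median log2 fold change of the 43 genes stayed negative under all 19 alternatives, between −0.25 and −0.10 with other settings and between −0.33 and −0.0020 when 1 clone was left out, and 0 of the 43 passed the threshold under any of them. Other filters, other trends, the replicate block and dropping the fold limit leave every log2 fold change as it was. These settings could not move the median. The number of genes tested was 17823 in the main test and differed under some settings, such as other filters. The count of genes passing over all those tested was 0 without a filter, without a trend, with the replicate block and with voom, 895 with clone quality weights, and 0 to 1 when 1 clone was left out. Clone numbers did not pair the samples, since deviations of same-numbered clones correlated at 0.12, −0.20 and −0.11. With the replicate block the median of the 43 genes was −0.15, as it must be with balanced groups, and the block changed no other call. Genes of the 43 lying below all controls numbered 0 after rescaling without insulin and mitochondrial genes, 2 with voom, and 1 to 27 when 1 clone was left out (27 without *Snd1* KO 1), and genes above numbered 1 to 2. The 22 genes highest in *Snd1* KO 1 and lowest in *Snd1* KO 2 numbered 22 to 27 under the 15 alternatives run for this count, which was itself chosen after seeing the data.

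Of 475 log2 fold changes of the 25 named genes, 443 kept their direction and 32 reversed, all of them in 13 genes. The 475 include the settings that leave a log2 fold change as it was, which kept the direction by construction. *Tram1* was 0.063 with quantile normalization and 0.040 after rescaling, where *Sec24a* was 0.011, *Sec24b* 0.031 and *Sec24d* 0.029. *Srp14* was −0.039 with median ratio scaling, −0.021 with quality weights and −0.00041 with voom, and *Sec61g* −0.11 with quality weights. Leaving out 1 clone gave ranges that crossed 0 for *Tram1* (−0.23 to 0.19), *Srp14* (−0.032 to 0.051), *Sec24a* (−0.22 to 0.15), *Sec24b* (−0.090 to 0.023), *Sec24d* (−0.37 to 0.28), *Sec11a* (−0.021 to 0.30), *Ssr3* (−0.42 to 0.16), *Spcs3* (−0.39 to 0.050), *Stt3a* (−0.36 to 0.20), *Sec23b* (−0.60 to 0.016), *Copb1* (−0.33 to 0.045) and *Copb2* (−0.38 to 0.080). Among ratios it did so for *Sec23a* to *Sec23b* (−0.36 to 0.14), *Sec24a* to *Sec24b* (−0.20 to 0.15), *Sec24c* to *Sec24d* (−0.37 to 0.085), *Sec24d* to *Sec24a* (−0.15 to 0.17) and *Stt3a* to *Stt3b* (−0.097 to 0.25). *Sar1a* to *Sar1b* and *Sec11a* to *Sec11c* kept their direction, at −0.54 to −0.25 and 0.56 to 0.76. The cause of these reversals was not tested. With 3 clones a group, an exact test cannot go below 0.1. Every gene held 810 or more reads in every clone, and whether the spread between clones or depth limits the comparison was not tested.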
